A study of Mus musculus with 57 samples.

Results

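The 10 genes described here act in collagen maturation: the collagen chaperone Serpinh1, the prolyl 4-hydroxylase subunit P4ha2, the 3 lysyl hydroxylases Plod1, Plod2 and Plod3, and the 5 lysyl oxidases Lox, Loxl1, Loxl2, Loxl3 and Loxl4. They were chosen by gene name, each name matched 1 Ensembl gene, and they are 10 of the 47712 Ensembl genes in the count table. Bone marrow RNA came from male C57BL/6 mice, aged 8 weeks at the start, that received an antibody against PAPP-A (aPAPPA) or a control antibody over 4 weeks; the labels name no genotype beyond the strain. PAPP-A is a secreted protease that cleaves insulin-like growth factor binding proteins. The 6 sorted populations were, with n given as aPAPPA pools and then control pools, mesenchymal stromal cells (MSC, 4 and 6), haematopoietic stem cells (HSC, 4 and 3), common lymphoid progenitors (CLP, 4 and 4), granulocyte-monocyte progenitors (GMP, 4 and 4), megakaryocyte-erythroid progenitors (MEP, 4 and 4) and Myeloid cells (6 and 6). Unsorted whole bone marrow (WBM) was sequenced from 4 control pools alone. The labels give each library a batch (A, B or C) without saying what a batch shared. Each library came from 1 numbered pool of mice, and the labels give neither the mice in a pool nor the sorting gates. Within a population each pool gave 1 library, so p-values of treatment there measure the spread between these pools. Fits over several populations count libraries of the same pool as separate, so their p-values measure the spread between libraries. Pool entered those fits only in an alternative.

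Newly made collagen chains are hydroxylated on proline by prolyl 4-hydroxylases and on lysine by lysyl hydroxylases in the endoplasmic reticulum, where Serpinh1 (HSP47) binds the folded triple helix and accompanies it on its way out. Outside the cell, the copper-dependent lysyl oxidases convert lysine and hydroxylysine into aldehydes that form the crosslinks of collagen and elastin fibres. In marrow, stromal and bone-lining cells are known as the main makers of fibrillar collagen.

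Library totals ran from 107412 counts (HSC, aPAPPA pool 6) to 125537299 counts, and 4 of the 57 libraries held fewer than 1000000: that HSC library, MSC aPAPPA pool 8 (499300), MSC control pool 7 (321860) and CLP control pool 5 (587316). Levels are counts per 1000000 (CPM) of the library total after scaling by trimmed mean of M-values. Stromal markers matched the MSC label: the summed level of 8 stromal genes (Lepr, Cxcl12, Adipoq and others) was 37310 to 71750 CPM in aPAPPA MSC and 28600 to 63180 CPM in control MSC, against 12.78 to 94.65 CPM in WBM. MSC also held the most osteoblast marker RNA, with 4371 to 11870 CPM in aPAPPA and 6562 to 23100 CPM in control libraries (WBM 59.05 to 560.6 CPM). The part of osteoblast RNA in the MSC levels below was not tested. Stem cell, lymphoid, granulocyte progenitor and neutrophil markers were highest in HSC, CLP, GMP and Myeloid cells. CLP also held 2944 to 10250 CPM of granulocyte progenitor markers in aPAPPA and 2668 to 10360 CPM in control libraries (GMP 21860 to 34720 CPM), and the erythroid markers of MEP (259.6 to 733.7 CPM) overlapped those of MSC (472.4 to 4240 CPM) and were below those of WBM (9128 CPM or more). MSC aPAPPA pool 8 and MSC control pool 7, both shallow and both of batch A, also held the most neutrophil marker RNA of their groups (10760 and 6350 CPM in sum, against 1510 to 1750 CPM in the other aPAPPA MSC libraries and 921.7 to 2334 CPM in the other control MSC libraries). In CLP, aPAPPA pool 2 and control pool 1 stood apart from the other 6 libraries of that sort, with 440.5 and 407.4 CPM of summed osteoblast markers against 9.761 to 25.5 CPM. The part of these libraries in each result was not tested beyond the values given with and without them. Because RNA was pooled from many cells, fewer expressing cells and less RNA per cell cannot be told apart.

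Of the 10 genes, 9 had their highest control mean in MSC, and the exception was Plod3. The 10 genes together summed to 3407 ± 585.5 CPM in aPAPPA MSC (SD, n = 4) and 3003 ± 901.3 CPM in control MSC (SD, n = 6), while no other control group averaged more than the 267.3 ± 23.16 CPM of GMP (SD, n = 4). In the fit of all control libraries, all 10 genes were higher in MSC than in the mean of the other sorted populations (edgeR quasi-likelihood test, Benjamini-Hochberg adjusted p under 0.05), where 28.7% of the 21384 tested genes were higher and 20.1% lower. Their median log2 difference was 5.84, against 0.14 over all genes. Against WBM all 10 were again higher, beside 25.2% of all genes higher and 25.6% lower, and their median log2 difference was 5.55 against -0.09 over all genes; both comparisons use the same MSC libraries.

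**Figure D1:**
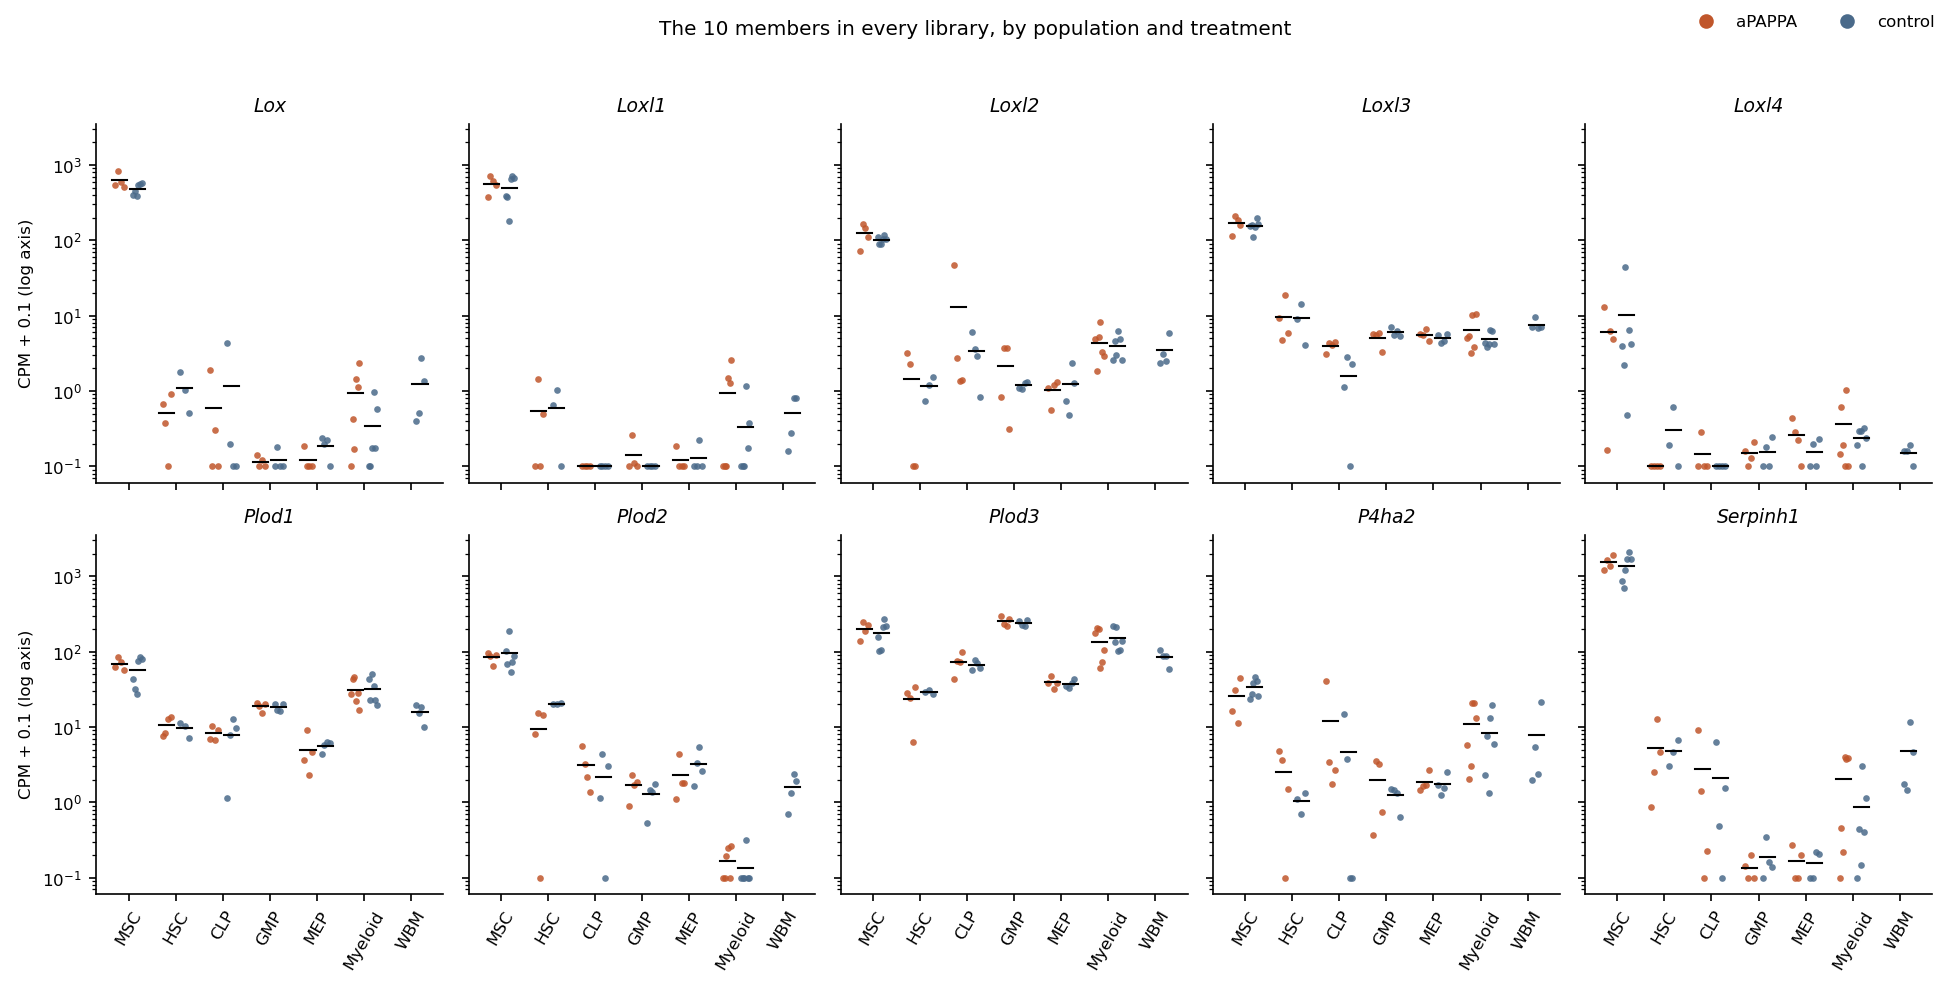
Level of each of the 10 genes (CPM plus 0.1, log axis) by population and treatment. Points are libraries and bars are group means; the MSC libraries stand above the rest for most genes, while the Plod3 libraries of GMP reach 293.1 CPM and lie among or above those of MSC.

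Serpinh1, the collagen-specific chaperone (chromosome 7, 99345376 to 99353239, minus strand, GRCm38), had the highest level per kilobase of exon of the 10 in MSC. It stood at 1223, 1641, 1380 and 1931 CPM in the 4 aPAPPA MSC libraries, and at 706.1 to 2123 CPM with a median of 1470 CPM in the 6 control MSC libraries. In the other sorted control groups its means were 4.73 ± 1.85 CPM in HSC (SD, n = 3), 2.028 CPM in CLP, 0.7741 CPM in Myeloid cells, 0.08493 CPM in GMP and 0.05703 CPM in MEP. No library outside MSC came near the stromal level, the highest being 12.6 CPM (2 counts) in the shallow HSC aPAPPA pool 6. The 4 WBM libraries had 1.63, 1.334, 11.41 and 4.485 CPM, so that control MSC stood 295-fold over WBM in the means (log2 difference 8.04, SE 0.897, adjusted p = 4.465e-08).

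P4ha2 encodes a catalytic subunit of prolyl 4-hydroxylase and lies on the plus strand of chromosome 11 (54100095 to 54131665). Per kilobase it was the lowest of the 4 hydroxylases in MSC, and its level was 16.42, 31.29, 11.09 and 44.78 CPM in the aPAPPA libraries and 23.49 to 46.51 CPM, median 32.99 CPM, in the control libraries. Control MSC exceeded control Myeloid cells, next in order at 8.185 ± 6.91 CPM (SD, n = 6), by 4.11-fold in the means (log2 difference 2.13, adjusted p = 0.0274), and WBM by 4.38-fold (log2 difference 2.30, SE 0.676, adjusted p = 5.24e-03). WBM was uneven for this gene, with 1.872, 5.368 and 2.258 CPM in batch A and 21.24 CPM in the batch C library. Among Myeloid libraries batch C also averaged more than batch B, with 18.03 CPM in aPAPPA and 12.71 CPM in control cells of batch C, and 3.513 CPM in aPAPPA and 3.66 CPM in control cells of batch B. The batches did not overlap in aPAPPA cells, but they did in control cells (5.759 to 19.39 CPM in batch C and 1.247 to 7.511 CPM in batch B).

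Plod3, the lysyl hydroxylase that also carries glycosyltransferase activity toward hydroxylysine, lies on the plus strand of chromosome 5 (136987019 to 136996648). GMP had the highest control mean, with 251.9, 223.2, 220.0 and 263.3 CPM, and the 4 aPAPPA GMP libraries had 293.1, 229.9, 221.8 and 274.9 CPM. Control MSC spread more widely, from 102.7 to 267.3 CPM with a median of 184.0 CPM. Within batch A, the only batch with GMP, all 4 control GMP libraries lay above all 3 control MSC libraries (102.7 to 156 CPM), whereas the 3 batch C MSC libraries (211.9 to 267.3 CPM) overlapped GMP. With batch in the fit the GMP minus MSC log2 difference of 0.57 was not called (adjusted p = 0.0619). Control Myeloid cells followed MSC at 152.2 ± 51.87 CPM (SD, n = 6; log2 MSC minus Myeloid 0.86, adjusted p = 0.00443), and in batch C, which holds both, MSC lay wholly above Myeloid cells (103.2 to 140.4 CPM). WBM had 105.7, 88.25, 86.25 and 58.78 CPM, CLP averaged 66.23 ± 9.36, MEP 37.1 ± 4.42 and HSC 28.98 ± 1.68 CPM (SD, n = 4, 4 and 3). The call of MSC over WBM (log2 difference 1.01, SE 0.234, adjusted p = 5.723e-04) was lost without pool 3 (0.67, adjusted p = 0.0877) and without pool 15 (0.44, adjusted p = 0.0853).

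RefSeq's promoter table (GRCm38.p6, from 250 bases before to 50 after the start) holds 5 of the members. Of these, Serpinh1, P4ha2 and Plod3 have windows with ACGTG, a form of the core of the hypoxia response element. The other form, GCGTG, was not searched for and is not marked. Their windows are shown with each match on either strand (ACGTG or CACGT) in capitals, because hypoxia is a known inducer of collagen hydroxylases. The letters occur in 6447 of the 32851 promoter windows of the table (19.6%), so a match is common, and it is a description of the letters and no sign of a bound factor.
Serpinh1 (chr7:99353190-99353489, minus strand): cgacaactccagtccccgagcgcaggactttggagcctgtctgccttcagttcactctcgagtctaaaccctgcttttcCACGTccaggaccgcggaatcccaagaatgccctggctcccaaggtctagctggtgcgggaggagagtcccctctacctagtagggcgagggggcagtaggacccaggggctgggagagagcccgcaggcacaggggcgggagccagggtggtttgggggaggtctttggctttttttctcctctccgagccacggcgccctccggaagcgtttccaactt
P4ha2 (chr11:54100674-54100973, plus strand): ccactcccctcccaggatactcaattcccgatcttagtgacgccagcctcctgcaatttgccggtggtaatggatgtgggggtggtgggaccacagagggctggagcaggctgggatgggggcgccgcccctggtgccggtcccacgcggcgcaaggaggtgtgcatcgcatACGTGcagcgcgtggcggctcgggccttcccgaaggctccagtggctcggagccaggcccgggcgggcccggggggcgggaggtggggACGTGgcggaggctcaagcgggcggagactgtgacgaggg
Plod3 (chr5:136986769-136987068, plus strand): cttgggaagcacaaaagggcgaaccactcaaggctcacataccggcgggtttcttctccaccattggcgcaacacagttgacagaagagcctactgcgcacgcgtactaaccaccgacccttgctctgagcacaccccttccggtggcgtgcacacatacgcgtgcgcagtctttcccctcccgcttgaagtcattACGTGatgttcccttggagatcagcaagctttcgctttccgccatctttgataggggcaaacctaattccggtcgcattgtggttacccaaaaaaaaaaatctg
The match starts at position -171 from the start site in Serpinh1, at -78 and 11 in P4ha2 and at -54 in Plod3. The P4ha2 window lies inside the gene span given above, which begins at 54100095, so its start site is not the first base of that span. The windows of Plod1 and Loxl4 held neither ACGTG nor CACGT. The inverted heat shock pair GAANNTTC, which reads the same on both strands, was found in Plod1 alone among these 5 windows, at position 43, and in 7.86% of all windows.

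Plod1 (chromosome 4, 147909753 to 147936767, minus strand) hydroxylates lysines in the helical part of collagen. It had 62.04, 85.73, 73.51 and 56.54 CPM in aPAPPA MSC and 27.63 to 84.8 CPM, median 58.63 CPM, in control MSC. The order of the means continued with Myeloid cells at 32.26 ± 12.5 CPM (SD, n = 6), GMP at 18.2 ± 2.22 CPM (SD, n = 4), and HSC, CLP and MEP between 5.529 and 9.5 CPM. With batch in the fit, the step from Myeloid cells to GMP had a log2 difference of 0 and was not called. Control MSC and Myeloid libraries overlapped over all batches, but in batch C the MSC libraries (73.95 to 84.8 CPM) lay above the Myeloid libraries (19.68 to 35.24 CPM), and the step was called (log2 difference 1.44, adjusted p = 0.00411). Against WBM the log2 difference was 1.76 (SE 0.402, adjusted p = 5.217e-04).

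Plod2, the lysyl hydroxylase that acts on the telopeptides at the chain ends, lies on chromosome 9 (92542223 to 92608428, plus strand). It had 96.71, 87.71, 64.45 and 89.61 CPM in aPAPPA MSC and 53.07 to 187.9 CPM, median 79.25 CPM, in control MSC. HSC ranked next with 19.97, 20.33 and 20.8 CPM in control pools, and MEP followed at 3.146 CPM. Both steps were called: MSC over HSC by 2.45 (adjusted p = 0.00101) and HSC over MEP by 2.68 (adjusted p = 6.395e-04) on the log2 scale. Plod2 was all but missing from Myeloid cells, with 3 counts over the 6 control libraries (0.03567 CPM on average) and 12 counts over the 6 aPAPPA libraries. WBM averaged 1.479 ± 0.73 CPM (SD, n = 4), 64.0-fold below control MSC (log2 MSC minus WBM 6.11, SE 0.580, adjusted p = 5.301e-10).

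Lox, which oxidizes lysines of fibrillar collagens and elastin, lies on chromosome 18 (52516067 to 52529867, minus strand). Its level was 547.4, 841.4, 603.2 and 503.6 CPM in the aPAPPA MSC libraries and 386.9 to 584.9 CPM, median 495.8 CPM, in the control MSC libraries. Every other library of the series had less than 5 CPM. WBM had 0.3019, 0.4152, 2.614 and 1.259 CPM, so that the MSC mean was 423-fold higher (log2 difference 8.73, SE 0.780, adjusted p = 6.188e-10).

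Loxl1, known for its part in elastic fibre upkeep, lies on chromosome 9 (58287738 to 58313186, minus strand). It was at 375.9, 710.9, 619.2 and 540.3 CPM in aPAPPA MSC and 182.4 to 707.2 CPM, median 519.6 CPM, in control MSC. It had no count in any of the 8 CLP libraries or the 4 control GMP libraries. With a floor of 3 counts over a group, control MSC stood at least 2670-fold higher than either of these control groups. The mean in control MSC was 1190-fold that in WBM (log2 difference 10.06, SE 0.715, adjusted p = 4.642e-10), and the WBM libraries held 2 to 24 counts of the gene.

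Loxl2 and Loxl3, which like Loxl4 carry scavenger receptor domains, had lower levels per kilobase in MSC than Lox and Loxl1 but were counted in every population. Loxl2 (chromosome 14, 69609068 to 69695834, plus strand) had 71.16, 167, 146.1 and 109.5 CPM in aPAPPA MSC and 88.27 to 116.7 CPM, median 103.9 CPM, in control MSC. Its next sorted mean was 3.877 ± 1.47 CPM in control Myeloid cells (SD, n = 6), and control MSC stood 30.3-fold over WBM (log2 difference 4.98, SE 0.430, adjusted p = 3.593e-11). Loxl2 in aPAPPA MSC fell below the narrow control range only in the shallow pool 8 of batch A (71.16 CPM, 39 counts). In batch C it had 109.5 to 167 CPM in aPAPPA and 103.1 to 116.7 CPM in control MSC, which overlapped. Loxl3 (chromosome 6, 83034173 to 83052562, plus strand) had 113.1, 209.3, 186.2 and 160.7 CPM in aPAPPA MSC and 110.5 to 198.5 CPM, median 156.6 CPM, in control MSC. HSC ranked second at 9.11 ± 5.18 CPM (SD, n = 3) and CLP last at 1.49 CPM, below Myeloid cells by 1.57 on the log2 scale (adjusted p = 0.0153). Loxl3 was 20.8-fold higher in control MSC than in WBM (log2 difference 4.48, SE 0.322, adjusted p = 6.883e-13).

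Loxl4 (chromosome 19, 42593982 to 42612813, minus strand) was the lowest of the lysyl oxidases per kilobase. It had 12.77, 0.06615, 6.165 and 4.858 CPM in aPAPPA MSC and 0.3769 to 44.21 CPM, median 4.005 CPM, in control MSC. The 44.21 CPM of control pool 7 rest on 8 counts, and aPAPPA pool 16 held the lowest value although it was among the deep libraries. Outside MSC the highest group mean was 0.2658 CPM, in aPAPPA Myeloid cells, and WBM held 7 counts in all 4 libraries. Control MSC was nevertheless called over WBM (log2 difference 7.81, SE 1.47, adjusted p = 4.731e-05), and without pool 7 the difference was 6.24 (adjusted p = 0.0017).

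Loxl3 overlaps Htra2 and Plod3 overlaps Znhit1 on the opposite strand, and Lox, Loxl2 and Plod2 overlap shorter antisense or unclassified transcripts. The libraries were strand-specific, but the sources used here do not say how the counting used strand.

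Ordering the 7 populations by control mean gives 6 steps between neighbours for each gene. Of these 60 steps, 15 were called, and the step from MSC to the next population was among them for 9 genes. Over all genes and the pairs of populations used, 26.5% of tests were called. That share is not taken over neighbours in each gene's own order, so the 15 steps cannot be measured against it. The order also came from the same control levels that were tested. The other 6 called steps were MSC over Myeloid cells and CLP over MEP for Plod3, HSC over MEP and GMP over Myeloid cells for Plod2, CLP over MEP for Loxl2, and Myeloid cells over CLP for Loxl3. The remaining 45 neighbouring pairs were not called; the libraries of 1 of them, Plod3 in MEP over HSC, did not overlap (32.52 to 42.82 CPM in MEP against 27.24 to 30.59 CPM in HSC; log2 difference 0.41, adjusted p = 0.313). Below MSC the order of Lox, Loxl1, Loxl4, Plod1, P4ha2 and Serpinh1 is not resolved step by step. For Lox, Loxl1, Loxl4 and Serpinh1 many lower steps compare groups near the floor. Loxl1, at 0 CPM in both control CLP and control GMP, could not be called there.

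Single populations were also set against the mean of the other sorted populations in control cells. For each blood population that mean includes MSC, where all 10 genes were high in the comparison above. A lower call can therefore reflect the MSC level, and a mean without MSC was not tested. Loxl2 was called lower in HSC, GMP and MEP, although no step between these neighbours in its order was called. The lower call of Lox in GMP rests on 1 count over the 4 control libraries. HSC was higher in Plod2 (log2 difference 2.98, SE 0.414, adjusted p = 3.041e-06) and lower in Loxl2 and Plod3, beside 12.3% of all genes higher and 5.74% lower. GMP was higher in Plod3 (1.95, SE 0.175, adjusted p = 1.086e-09) and lower in Lox, Loxl2, Plod2, P4ha2 and Serpinh1, beside 12.1% higher and 7.24% lower. In GMP the lower calls of Plod2 (-1.81, adjusted p = 0.0124) and P4ha2 (-1.82, adjusted p = 0.0463) were each lost on leaving out single pools, with adjusted p of 0.0549 to 1 for Plod2 (pools 3, 5, 7 and 15) and 0.0712 to 0.178 for P4ha2 (pools 1, 3, 5, 7 and 17), and Serpinh1 was lost without pool 7 (adjusted p = 0.0805). MEP was lower in Loxl2, Loxl3, Plod1, Plod3 and Serpinh1 and higher in none, beside 15.1% higher and 10.1% lower. The Loxl3 call in MEP (-0.91, adjusted p = 0.00839) was lost without pool 3 (-0.60, adjusted p = 0.248) and without pool 5 (-0.65, adjusted p = 0.103). CLP was lower in Loxl3 (-2.74, adjusted p = 1.536e-06) and Plod1 (-1.32, adjusted p = 0.0199), beside 7.43% higher and 5.2% lower. The Plod1 call in CLP was lost without any 1 of pools 1, 3, 5, 7, 9, 13 or 15 (-1.50 to -0.89, adjusted p between 0.05 and 0.131). Myeloid cells were lower in Plod2 alone, beside 14.2% higher and 19.9% lower.

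Set per kilobase of merged exons, so that genes can be compared with each other, control MSC had 569.3 ± 226.9 CPM per kb of Serpinh1, 150.3 ± 64.22 of Loxl1, 101.7 ± 18.1 of Lox and 39.16 ± 14.76 of Plod3 (SD, n = 6). Loxl3 had 34.02, Loxl2 18.83, Plod2 17.57, Plod1 8.412, P4ha2 5.392 and Loxl4 2.418 CPM per kb on average. The ranges of Loxl1 (55.32 to 214.5) and Lox (80.97 to 122.4 CPM per kb) overlapped, as did those of Loxl2 (16.33 to 21.59) and Plod2 (9.842 to 34.85), and this last pair changes places when the longest transcript is used as length.

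**Figure D2:**
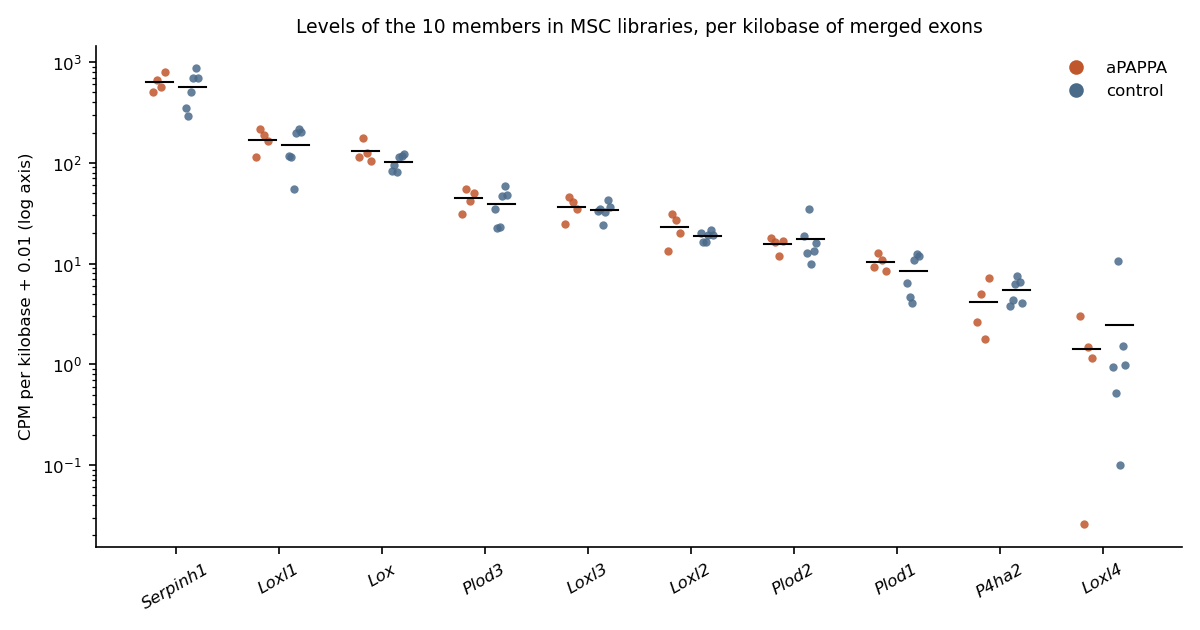
Level per kilobase of exon (CPM per kb plus 0.01, log axis) of the 10 genes in aPAPPA and control MSC. Points are libraries and bars are group means; Serpinh1 averages 569.3 CPM per kb in control MSC and Loxl4 2.418.

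The make-up of each enzyme family differed between populations as well as its amount. In MSC the lysyl oxidases summed to 362 CPM per kb in aPAPPA and 307 in control cells, of which Loxl1 gave 47.1% and 48.9%, Lox 36.1% and 33.1%, and Loxl3 10.1% and 11.1%. The same family summed to no more than 3.36 CPM per kb in any other group, and there Loxl3 led in the group means except in CLP: it gave 76.6% in control HSC, 85.5% in control GMP, 81.2% in control MEP, 54.4% in control Myeloid cells and 62% in WBM. In CLP, Loxl2 led with 71.6% in aPAPPA and 52.4% in control cells, but aPAPPA pool 2 alone held 46.97 CPM of it, against 2.61 CPM or less in the other 3. Over the single aPAPPA CLP libraries the median share was 69.6% for Loxl3 and 27% for Loxl2, so that the lead of Loxl2 there rests on that pool. Among lysyl hydroxylases, Plod3 led in every group, with 63.1% in aPAPPA and 60.1% in control MSC and 94.8% in both treatments of GMP. Plod2 was a sizeable part in MSC (22.3% in aPAPPA and 27% in control cells) and in HSC (20.6% in aPAPPA and 32.6% in control cells), and at most 6.07% elsewhere. These shares are descriptions of group means, with no test.

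**Figure D3:**
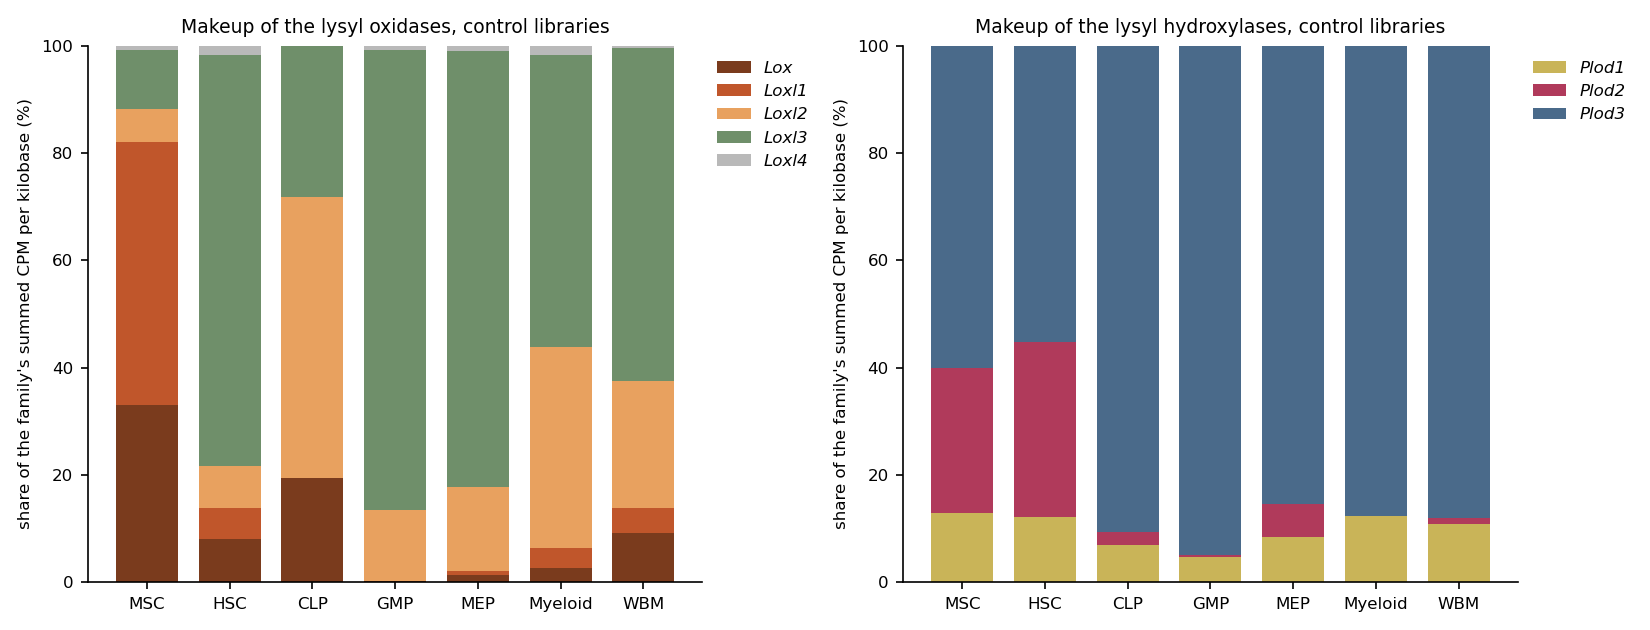
Share of each gene in its family's summed level per kilobase, from control group means, for lysyl oxidases and lysyl hydroxylases by population. In MSC, Lox and Loxl1 make up most of the lysyl oxidase bar, while Loxl3 leads in the blood populations other than CLP; Plod3 leads the lysyl hydroxylases throughout.

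Other genes of collagen maturation followed MSC too. Over all genes 28.7% were higher and 20.1% lower in this comparison, with a median of 0.14. Of 14 further modifying enzymes and chaperones, 11 were higher and none was lower in control MSC than in the mean of the other sorted populations (median log2 difference 4.02), among them the peptidyl-prolyl isomerases Fkbp14 (8.64) and Fkbp10 (9.43), the prolyl 4-hydroxylase subunit P4ha1 (2.69) and the prolyl 3-hydroxylase P3h2 (8.07). Of 10 tested genes of procollagen secretion and trimming, 9 were higher (median 5.20), such as the propeptidase Adamts2 (8.25) and the procollagen proteinase enhancer Pcolce (11.17). All 14 collagen and elastic fibre substrates (median 8.57) and all 9 matrix partners (median 10.78) were higher; Fbn1, the microfibril protein, differed by 9.05 and Bgn, a small proteoglycan, by 10.78. Genes induced by hypoxia outside the 10 were mixed: 4 of 12 were higher, including Vegfa (3.01) and Adm (7.92), and 5 were lower, including the glycolytic enzyme Pgk1 (-2.37) and the kinase Pdk1 (-2.30), with a median of -0.38. All adjusted p-values of these named genes were under 0.05.

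As a description, the group means of 9 of the genes (log2 of CPM plus 1, over the 13 groups) were set beside those of 12456 other genes. The closest were Pmp22 for Lox (r = 0.9986), Prelp for Loxl1 (0.9994), Parva for Loxl2 (0.9919), Insig2 for Loxl3 (0.9871), Nrip2 for Loxl4 (0.9966), Gas6 for Serpinh1 (0.9971), Dnm3os for P4ha2 (0.9862), Itm2b for Plod1 (0.9851) and Surf4 for Plod3 (0.9831). Among the 10, Lox and Loxl1 had r = 0.998, Lox and Serpinh1 0.989, Plod3 and Serpinh1 0.282 and Plod2 and Plod3 0.00705. The 13 means share sorts and batches, and no test was made of these correlations. For Lox, Loxl1, Loxl4 and Serpinh1, all scarce outside MSC, r is set largely by the MSC means.

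In MSC, none of the 10 genes changed with aPAPPA (edgeR, adjusted p = 0.9993 for each; DESeq2 also called 0), and 0 had an unadjusted p under 0.05. Over all 15984 genes tested in MSC, 5 were called (0.0313%). The log2 differences, aPAPPA minus control with batch in the fit, were positive for 5 genes and negative for 5, and their median was 0 against -0.03 over all genes. Lox had the most positive one, at 0.22 (SE 0.167, 95% interval -0.10 to 0.55), from means of 623.9 ± 150.6 CPM in aPAPPA (SD, n = 4) and 485.9 ± 86.46 CPM in control MSC (SD, n = 6). The lowest aPAPPA library of Lox, 503.6 CPM, lay above 3 of the 6 control libraries, and the groups overlapped. P4ha2 had the most negative one, at -0.51 (SE 0.370, 95% interval -1.24 to 0.21), from 25.89 ± 15.22 CPM in aPAPPA and 33.64 ± 9.513 CPM in control MSC. For Serpinh1, Loxl1, Loxl3 and Plod3 the differences were -0.01, -0.05, -0.07 and -0.05, with 95% intervals that all lay between -0.44 and 0.35. Loxl2, Plod1 and Plod2 stood at 0.11, 0.07 and 0.04, with intervals between -0.44 and 0.52. Loxl4, which spread widely between libraries, deep ones included, had an interval of -2.10 to 2.12, so that changes of several fold in either direction would not have been called.

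**Figure D4:**
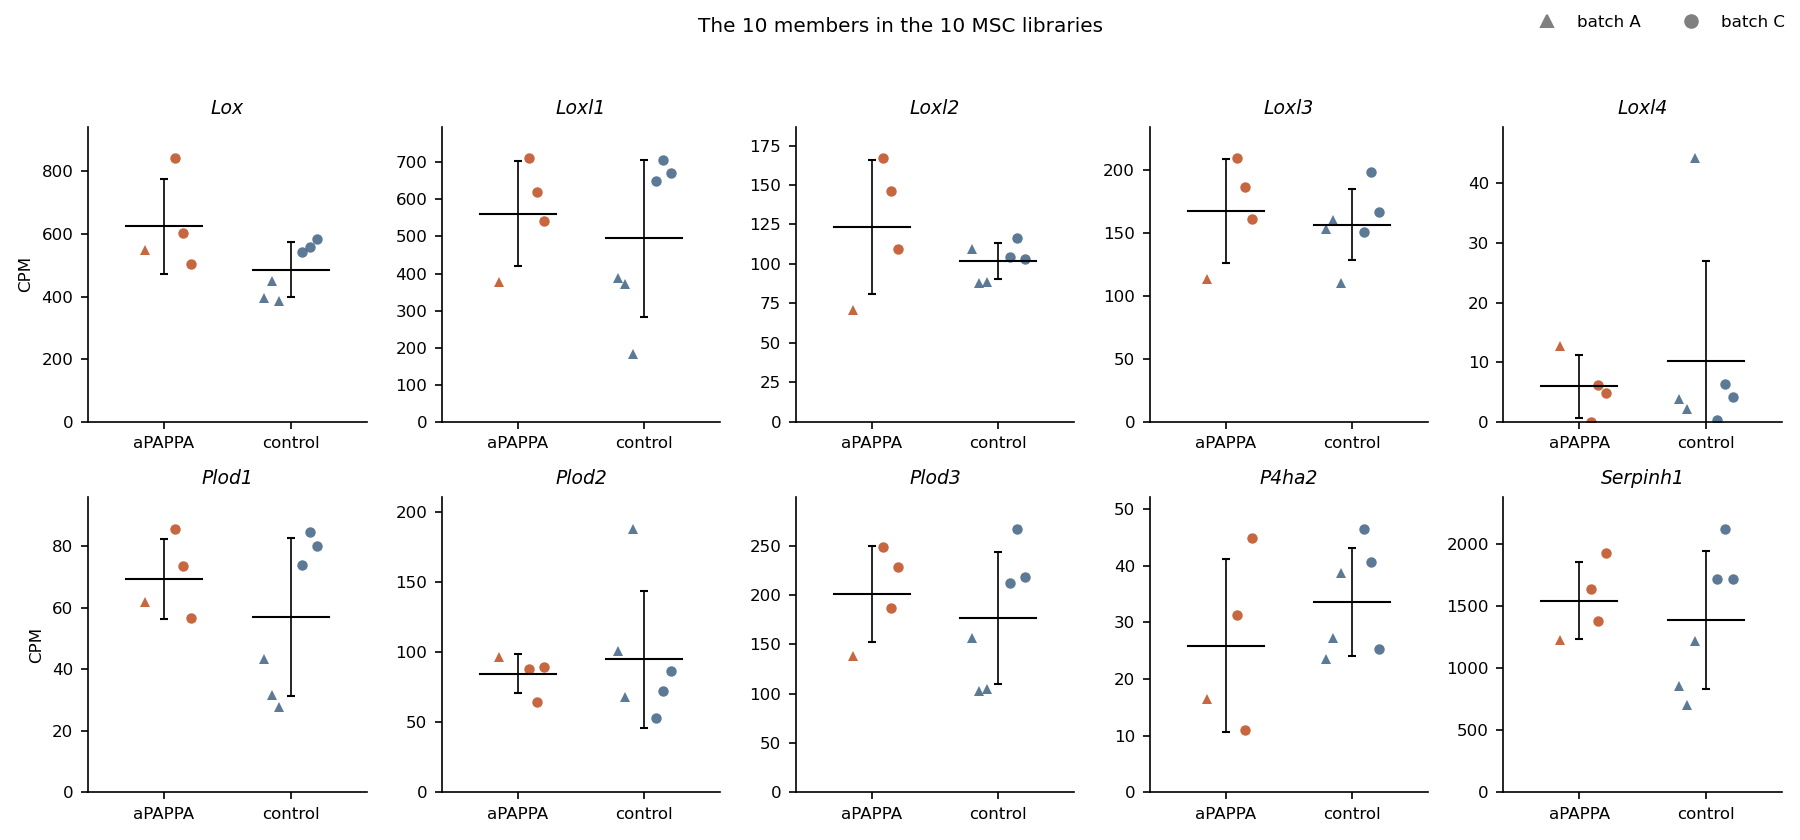
Level of each gene (CPM) in the single MSC libraries, aPAPPA left of control; triangles are batch A, circles batch C, and bars give the mean ± SD. The treatments overlap for every gene, and batch C lies above batch A in control MSC for Serpinh1, Plod1, Plod3, Lox and Loxl1.

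**Figure D5:**
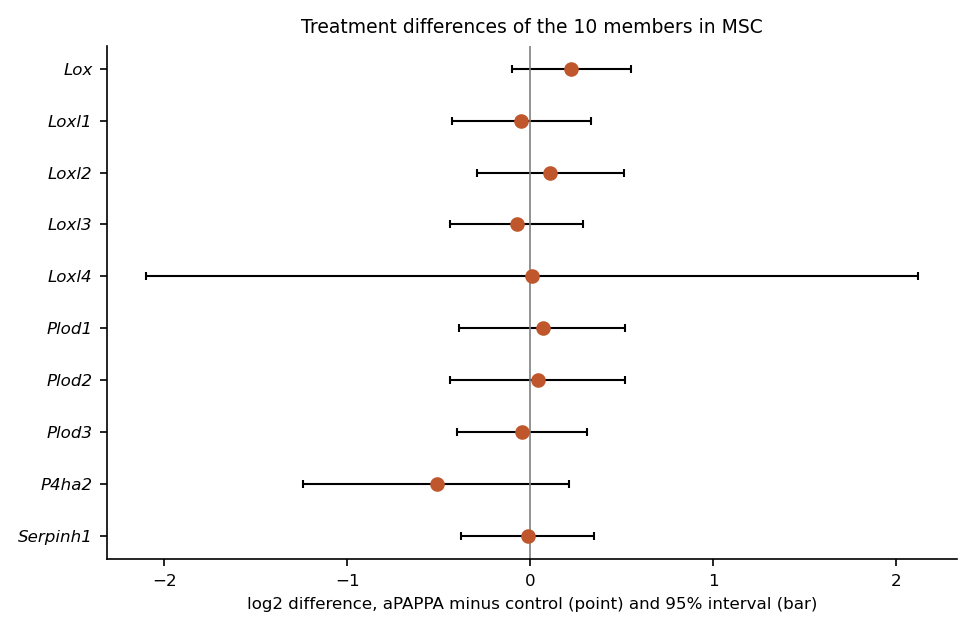
Log2 difference, aPAPPA minus control in MSC, of the 10 genes with its 95% interval. Every interval includes 0, and that of Loxl4 runs from -2.10 to 2.12.

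The levels of several of these genes in control MSC split by batch. In control MSC all 3 batch C libraries lay above all 3 batch A libraries for Plod1 (means 79.64 and 34.17 CPM), Loxl1 (676.3 and 314.7 CPM), Serpinh1 (1854 and 927.6 CPM), Plod3 (232.6 and 121.2 CPM) and Lox (561.2 and 410.6 CPM). The batches overlapped for the other 5 genes. The share of all genes that split in this way was not computed, so the count is no trait of these genes. Control MSC libraries of batch A were also shallower, with 321860 to 3753007 counts against 15318825 to 18445347 in batch C. Batch and depth cannot be told apart here. Batch A holds 1 of the 4 aPAPPA and 3 of the 6 control MSC libraries, so the unadjusted treatment means above carry this imbalance. In batch C alone, with 3 pools of each treatment, Lox had 841.4, 603.2 and 503.6 CPM in aPAPPA and 541.2, 557.5 and 584.9 CPM in control MSC, and Serpinh1 had 1641, 1380 and 1931 CPM in aPAPPA and 1719, 2123 and 1720 CPM in control MSC. Both sets overlap, and no member was called within that batch either.

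None of the surrounding pathway lists held a called gene in MSC under treatment: 0 of 14 modifying enzymes, 0 of 10 secretion genes, 0 of 14 substrates, 0 of 9 matrix partners and 0 of 11 tested hypoxia genes passed in edgeR. DESeq2 called 0 in each, and the unadjusted p was under 0.05 for 1, 3, 2, 3 and 0 of them in that order, and for 676 of all 15984 genes. Their median log2 differences were -0.01, -0.13, -0.14, 0.23 and 0.04. Beside them, the osteoblast marker Ibsp, a bone matrix sialoprotein, was lower in aPAPPA MSC (2594 CPM on average, against 4652 CPM in control MSC; log2 difference -0.99, SE 0.174, adjusted p = 0.0437). This call was lost on leaving out any 1 MSC pool other than pool 7, with log2 differences of -1.06 to -0.92 and adjusted p of 0.0633 to 0.419 in edgeR, and with no batch term (-0.94, adjusted p = 0.951). It was kept without pool 7, with DESeq2 (adjusted p = 4.702e-06), with DESeq2 size factors in edgeR (0.0365), with no low-count filter (1.846e-05), without the libraries under 1000000 counts (0.00423) and in batch C alone (0.0258). DESeq2 also called Alpl, another osteoblast marker, which edgeR did not (-0.90, SE 0.210, adjusted p = 0.344). Of the 6 osteoblast markers, 5 had negative differences. The other, Dmp1, went the opposite way and was not called (0.77, SE 0.329, unadjusted p = 0.0299 in edgeR). The 5 neutrophil markers had positive differences in the same fit, with a median of 0.75 and an unadjusted p under 0.05 for 3, and none was called; their part in these results was not tested.

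In the 5 blood populations no member was called under treatment by edgeR or DESeq2. Over all genes, 0.0069% were called in HSC and 0% in each of the other 4 sorts. Filters on low counts kept 7 members each in HSC and Myeloid cells, and 6 each in the CLP, GMP and MEP fits. The unadjusted p was under 0.05 for 2 members, both in HSC, and for 0 in the other 4; over all genes it was under 0.05 for 1156 of 14494 in HSC. Plod2 had 7.95, 15.01, 0 and 14.39 CPM in aPAPPA HSC against 19.97, 20.33 and 20.8 CPM in control HSC, and all 4 aPAPPA libraries were below all 3 controls. The share of all genes that separate in this way in HSC was not computed, so the separation is no trait of Plod2. The 0 is the shallow pool 6; the log2 difference was -0.70 (SE 0.320, adjusted p = 0.618 in edgeR) and -0.63 without that pool (adjusted p = 0.532). P4ha2 had 4.654, 3.547, 0 and 1.399 CPM in aPAPPA HSC against 1.017, 0.5931 and 1.248 CPM in control HSC, with a log2 difference of 1.74 (SE 0.754, adjusted p = 0.618 in edgeR) and 1.82 without pool 6 (adjusted p = 0.527). Neither passed the adjustment. In GMP, Plod3 averaged 254.9 ± 34.53 CPM in aPAPPA and 239.6 ± 21.35 CPM in control cells (SD, n = 4 each), and the log2 difference was 0.12 (95% interval -0.12 to 0.35).

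In CLP the 6 tested members had positive log2 differences, with a median of 0.80 against 0.02 over all genes, and none was called. For Loxl2 and P4ha2 the libraries that stand apart held the highest values of their groups. Loxl2 was at 46.97 CPM in aPAPPA pool 2 and 1.245 to 2.61 CPM in the other aPAPPA libraries, against 6.002 CPM in control pool 1 and 0.7285 to 3.51 CPM in the other controls. P4ha2 was at 40.65 CPM in aPAPPA pool 2 and 1.66 to 3.355 CPM in the other aPAPPA libraries, against 14.88 CPM in control pool 1 and 0 to 3.608 CPM in the other controls. The same 2 libraries held 556.7 and 513.1 CPM of summed fibrillar collagen and elastic fibre genes, against 58.57 to 103.2 CPM in the other 6, and their part in the differences was not tested. Loxl3 had 2.96, 4.194, 3.942 and 4.364 CPM in aPAPPA CLP against 1.044, 2.73, 0 and 2.185 CPM in control CLP. All 4 aPAPPA libraries were above all 4 controls, which held 0 to 28 counts of the gene, and pools 2 and 1 were not the highest of their groups. How many genes separate in this way in CLP was not computed, so the separation is no trait of Loxl3. The log2 difference was 1.16 (SE 0.600, 95% interval -0.02 to 2.33, adjusted p = 0.9999 in edgeR), so it was not called.

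In Myeloid cells the scarce stromal members followed batch. Loxl1 had no count in the 6 batch B libraries and averaged 1.675 CPM in aPAPPA and 0.4729 CPM in control libraries of batch C. Serpinh1 averaged 3.761 CPM in aPAPPA and 1.417 CPM in control libraries of batch C, and 0.1577 CPM in aPAPPA and 0.1314 CPM in control libraries of batch B. The summed stromal markers moved alongside, at 110.1 to 167.7 CPM in aPAPPA and 12.85 to 88.11 CPM in control libraries of batch C, against 0.6623 to 3.444 CPM in aPAPPA and 1.056 to 1.921 CPM in control libraries of batch B. The part of stromal RNA in these values was not tested. Lox, with a log2 difference of 2.00 between treatments in this sort (SE 1.15, adjusted p = 0.995), was at 1.024 to 2.281 CPM in aPAPPA and 0.07429 to 0.8561 CPM in control libraries of batch C.

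Whether the response to aPAPPA differs between the 6 sorted populations was tested directly in 1 fit. None of the 10 members was called (edgeR; DESeq2 also called 0), 0 had an unadjusted p under 0.05, and 0.0511% of all genes were called. Lox came closest, with an adjusted p of 0.79 in edgeR.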

How the data were processed

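Strand-specific RNA-seq libraries of total RNA were checked with FastQC 0.11.5 and quantified with Salmon on mm10, according to the submitters' processing notes; its version, the annotation release and the step to genes are not given in the sources used. The authors deposited Salmon's estimated counts (expected counts) per gene and library as whole numbers, with no scaling. Of the 56332 genes in the deposited table, 18072 stood on several lines; repeated lines never differed, and 1 line per gene and library was kept. No 2 libraries were identical.

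Members and gene lists were chosen with earlier results of these data known. Members were all named; for lists, counts and up to 4 genes with the smallest p among those called; for likeness, the closest gene by Pearson correlation (that of Plod2 is not reported here).

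Counts were analysed in R 4.3.3 with edgeR 4.0.16: filterByExpr, trimmed mean of M-values (TMM), the robust quasi-likelihood test and Benjamini-Hochberg adjustment over all genes tested, called at 0.05. Treatment was fitted within each population, with batch as a term in MSC and Myeloid cells; the difference in response was an F test over all sorted libraries. Control populations were compared in 1 fit of all control libraries with population and batch. The tests were also run on simulated counts with known changes. That simulation held no differences between batches or populations, so it cannot show how the fits handle them. Levels per kilobase used merged exons of GENCODE M21 (GRCm38), which also gave positions. Promoters came from RefSeq (GRCm38.p6).

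Alternatives were DESeq2 1.42.0, its size factors in edgeR, no low-count filter, no batch term, single batches, leaving out each pool or the libraries under 1000000 counts, and a mouse pool block (limma 3.58.1 voom with no batch term for the difference in response, in place of batch in the control fit). The pairing comes from the labels, which give a pool's number to all populations sorted from it; no number is shared by a treated and a control pool, so treatment comparisons are unpaired. Deviations of libraries from their group means correlated with a median r of 0.0652 over 46 same-pool pairs (-0.435 to 0.401) and -0.0174 over 137 other pairs.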

Additional observations from a re-analysis of the deposited data

Results flagged for a closer look

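The 84 combinations of gene and group with 4 to 10 libraries and a mean of at least 1 CPM were examined. Their highest and lowest library were compared with the rest by Dixon's gap test at 95%, and 7 stood out. Chance alone would mark about 1 in 20 groups, or 4.2. That number is no fair measure here, because a high library also raises the mean that admits its group. Lox in control CLP (mean 1.068, median 0.04875 CPM) and Serpinh1 in aPAPPA CLP (mean 2.628, median 0.7166 CPM) were admitted in this way. Of the 7, 3 were in 1 library, CLP aPAPPA pool 2: Loxl2 at 46.97 CPM (238 counts, the next library at 2.61 CPM), P4ha2 at 40.65 CPM (206 counts, next 3.355 CPM) and Serpinh1 at 9.078 CPM (46 counts, next 1.305 CPM). Lox stood out in CLP control pool 1 at 4.175 CPM (16 counts, next 0.0975 CPM). These 2 CLP libraries also held the most osteoblast and neutrophil marker RNA of that sort (440.5 and 7894 CPM in aPAPPA pool 2, 407.4 and 7759 CPM in control pool 1), and the part of that RNA in the values was not tested.

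MSC control pool 7, the shallowest MSC library with 321860 counts, was far above the other control MSC libraries for Loxl4 at 44.21 CPM (8 counts, next 6.39 CPM) and Plod2 at 187.9 CPM (34 counts, next 100.9 CPM). In WBM, Loxl3 was at 9.401 CPM in pool 5 (317 counts) and no higher than 6.924 CPM in the other 3 libraries.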

How the results depend on the processing

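No treatment call appeared for any of the 10 genes in any population or in the test between populations, under any alternative run. In MSC, where no difference was called, several small log2 differences changed sign: with no low-count filter Serpinh1 was 0.002; with DESeq2 Loxl4 was -0.02; without libraries under 1000000 counts Loxl3 was 0.062 and Plod1 -0.199; in batch C alone Loxl3 was 0.055 and Plod1 -0.205; with no batch term Loxl1 was 0.081, Loxl4 -0.49, Plod2 -0.215, Plod3 0.074 and Serpinh1 0.068. Leaving out single pools, they ranged from 0.127 to 0.319 for Lox, -0.174 to 0.016 for Loxl1, 0.011 to 0.323 for Loxl2, -0.129 to 0.055 for Loxl3, -0.39 to 0.662 for Loxl4, -0.205 to 0.205 for Plod1, -0.066 to 0.149 for Plod2, -0.128 to 0.037 for Plod3, -0.894 to -0.23 for P4ha2 and -0.218 to 0.084 for Serpinh1. Over all genes, treatment calls in MSC numbered 5, against 43 with DESeq2, 55 with no low-count filter, 2 without libraries under 1000000 counts, 3 in batch C alone and 1 with no batch term; leaving out single pools gave 0 to 4. With DESeq2 and with no low-count filter they numbered 3 and 181 in HSC (1 in edgeR, and 149 without pool 8), 12 and 2 in MEP (0 in edgeR) and 1 and 112 in Myeloid cells (0 in edgeR). The difference in response was called for 11 genes, 156 with DESeq2 and 2 with the replicate block, a fit that also used limma voom and no batch term, and for 5 to 26 on leaving out single pools.

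All 10 genes remained higher in control MSC than in the other sorted populations and than in WBM with the replicate block of mouse pool in place of batch; the other counts of called genes were also equal (HSC 3, CLP 2, GMP 6, MEP 5 and Myeloid cells 1), and 15 neighbouring steps were called with it. Myeloid cells differed from the other populations in 1 gene, but in 6 with no batch term (over all genes 7307 and 12010); the cause was not tested. Leaving out single pools gave 3 to 4 genes in HSC, 1 to 2 in CLP, 3 to 6 in GMP (3 without pool 7) and 4 to 6 in MEP. In Myeloid cells it gave 1 to 2 (2 without pool 5, 11 or 15), and the called neighbouring steps numbered 12 to 16. Over all alternatives the counts were 3 to 4 in HSC, 1 to 3 in CLP, 3 to 9 in GMP, 4 to 7 in MEP and 1 to 6 in Myeloid cells. The called steps then numbered 12 to 17. In GMP, P4ha2 was not called with no low-count filter (adjusted p = 0.0758) nor Plod2 with no batch term (adjusted p = 0.112); in MEP, Loxl3 was not called with no low-count filter (adjusted p = 0.116). Per kilobase of the longest transcript in place of merged exons, control MSC had 53.95 CPM of Plod3, 13.89 of Plod1 and 10.99 of P4ha2. Outside MSC, Loxl4 and Loxl1 were near the floor in deep libraries too, and Loxl1 had no count in the deep Myeloid libraries of batch B. Depth limits the 4 libraries under 1000000 counts.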
